A study of Homo sapiens with 9 samples.

Results

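Fibroblast growth factor (FGF) signalling was followed through 7 genes in U87 cells, a human glioma line: the ligand genes FGF1, FGF2 and FGF5, the receptor gene FGFR1, and SPRY2, SPRY4 and DUSP6, whose products restrain the pathway. They were taken as every probe set (a group of short probes against 1 transcript) whose platform annotation gives exactly 1 gene symbol, equal to one of these names. This gave 20 probe sets out of 41091 with a single symbol, which stand for 7 of 19775 genes. The genes were chosen by their signals in these groups, that is, with all 3 contrasts known, so their values are a description and carry no test. Tests are given for other genes of the pathway.

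Cells received 50 nM of a miRNA duplex by transfection and were collected after 24 h, and 3 samples received miR-376a*A, 3 received miR-376a*G and 3 a control miRNA (miR-control). In published work miR-376a*A is the unedited sequence and miR-376a*G the edited one, in which adenosine deamination leaves a base that is read as G. All 3 groups share the line, transfection with Lipofectamine RNAiMAX and PS-free DMEM as the medium, and no untransfected group was analysed here. The labels call the samples of a group biological replicates without saying how the cultures were set up, so the spread given is that between these samples.

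FGF ligands are secreted proteins that bind receptor tyrosine kinases together with heparan sulfate chains on the cell surface. The bound receptor recruits adaptors and starts the RAS-ERK kinase cascade, and ERK then switches on genes for its own inhibitors, among them the Sprouty proteins and the phosphatase DUSP6. FGF2 and FGFR1 are known as a growth-promoting ligand and receptor pair in glioma.

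RNA of each sample was read on 1 Affymetrix array. The deposited signals are linear and already scaled, with a trimmed mean of 100.01 on every array and medians between 18 and 20.4, which hides any change common to all transcripts. Control replicates 1 and 2 scattered more around their group mean than the other 7 arrays (SD 0.166 and 0.145 in log2, against 0.102 to 0.114). Of 8 glial and mesenchymal genes typical of glioma lines, VIM, CD44, TNC, SPARC and NES were above the filter for dim probe sets, while GFAP, S100B and AQP4 were not, with mean signals of at most 10.3. Summed signals of 4 neuronal genes were 851 to 904 with miR-376a*A, 428 to 539.8 with miR-376a*G and 419 to 484 in the control, mostly from SNAP25. The brightest probe set of SNAP25 had means of 728, 406 and 302 in this order of groups. That of SYT1 had another pattern, with means of 126, 58.3 and 123, so the neuronal genes did not move as one. The part of these differences in the results below was not tested. Sums for epithelial, leukocyte and endothelial genes were at most 31.9, 26.6 and 152, and the endothelial sum was 127 to 152, 96.2 to 119.5 and 81.1 to 90.8 in the same order of groups, with CDH5 and VWF below the filter.

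Differences were computed on log2(signal + 16) with limma over 32768 probe sets, all 20 of the 7 genes among them, and understate the change of dim transcripts. The 3 arrays with miR-376a*A lay wholly apart from the 3 control arrays in 12 of the 20 probe sets (6 higher, 6 lower), against 36.7% of all probe sets (19.0% higher, 17.7% lower). The miR-376a*G arrays lay apart from the control in 13 (9 higher, 4 lower), against 39.1% of all (17.8% and 21.2%). The forms lay apart from each other in 13 (6 higher with miR-376a*A, 7 lower), against 42.0% (23.0% and 19.0%). Since these contrasts were in view when the genes were chosen, the counts say nothing about the genes as a set. Both forms are compared with the same control arrays.

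The genomic sequence of miR-376a* is shown first, because the groups differ by the miRNA they received. RefSeq lists miR-376a-5p, the present name of miR-376a*, on the plus strand of GRCh38.p14 at chr14:101040788-101040809. Capitals in the mature sequence mark the seed (bases 2 to 8), the part that pairs with targets, and capitals in the hairpin of MIR376A1 (chr14:101040782-101040849, plus strand) mark the 5′ arm.
hsa-miR-376a-5p: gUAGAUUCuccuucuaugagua
MIR376A1 hairpin: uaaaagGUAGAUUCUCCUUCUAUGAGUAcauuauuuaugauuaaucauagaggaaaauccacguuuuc
This is the genomic, and so unedited, form. Of the 4 miRNAs from 5′ arms of the miR-376 cluster in RefSeq, only this 1 has this seed. Published work places the edited base inside the seed, and the sequence of the miR-376a*G duplex was not in the sources used here.

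FGF2, a broadly acting mitogen and survival factor, was lower with miR-376a*A than in both other groups. Its brighter probe set, 204422_s_at, gave signals of 133, 116 and 129 with miR-376a*A, 381, 469 and 448 with miR-376a*G and 407, 279.8 and 319 in the control. All 3 miR-376a*A arrays lay below every other array, whereas the miR-376a*G and control arrays overlapped. The means were 126 ± 8.83, 433 ± 46.2 and 335 ± 65.3 (SD, n = 3 each). Against the control the log2 difference was -1.29 ± 0.12 (SE) for miR-376a*A, which is 2.44-fold lower, and 0.36 ± 0.12 (SE) for miR-376a*G. Between the forms it was -1.65 ± 0.12 (SE), 3.15-fold lower with miR-376a*A.

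The second FGF2 probe set, 204421_s_at, had the same pattern. Its signals were 129, 131 and 108 with miR-376a*A, 284, 260.1 and 330.4 with miR-376a*G and 304, 266 and 225 in the control. Again the miR-376a*A arrays lay below all others and the other groups overlapped. The log2 difference of miR-376a*A was -1.01 ± 0.115 (SE) against the control and -1.15 ± 0.115 (SE) against miR-376a*G, and that of miR-376a*G against the control was 0.13 ± 0.115 (SE). In RNA of a whole culture, a lower signal cannot be told apart from a smaller share of cells that carry the transcript.

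FGF1, a ligand that binds all FGF receptors, was higher with miR-376a*G than in both other groups. Its brightest probe set, 205117_at, gave 54.2, 58.7 and 51.7 with miR-376a*A, 105, 108 and 100.2 with miR-376a*G and 55.3, 38.6 and 42.6 in the control. The miR-376a*G arrays lay above all others, and the miR-376a*A and control arrays overlapped. The log2 difference of miR-376a*G was 0.98 ± 0.102 (SE) against the control (1.97-fold higher), while that of miR-376a*A was 0.21 ± 0.102 (SE). Between the forms it was -0.77 ± 0.102 (SE).

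The other FGF1 probe sets were dimmer and had the same order of miR-376a*G above the rest. Probe set 1552721_a_at gave 24.5, 25.4 and 26.7 with miR-376a*A, 46.6, 60.1 and 60.7 with miR-376a*G and 30.2, 27.1 and 24.1 in the control. In 208240_s_at the signals were 23.6, 20.5 and 25 with miR-376a*A, 32.2, 36 and 28.8 with miR-376a*G and 19, 20.6 and 20.4 in the control. In both, the miR-376a*G arrays did not overlap with any other, at 0.73 ± 0.103 (SE) and 0.42 ± 0.096 (SE) against the control. With miR-376a*A the same probe sets stood at -0.05 ± 0.103 (SE) and 0.11 ± 0.096 (SE), and their groups overlapped with the control. The size of these differences depends on the offset, since with 64 in place of 16 the 3 probe sets of FGF1 gave differences of 0.62, 0.39 and 0.20 between miR-376a*G and the control.

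FGF5, a ligand known for ending the growth phase of hair follicles, shared the pattern of FGF1. Probe set 208378_x_at gave 45.7, 57.2 and 49 with miR-376a*A, 84.3, 104 and 98.7 with miR-376a*G and 43.6, 52.5 and 40.6 in the control. Probe set 210310_s_at gave 29.5, 28.1 and 36.5 with miR-376a*A, 91.7, 94.1 and 92.3 with miR-376a*G and 29.2, 27.2 and 24.5 in the control. In both, the miR-376a*G arrays lay above all others, and the miR-376a*A and control arrays overlapped. Against the control the log2 difference of miR-376a*G was 0.86 ± 0.106 (SE) and 1.34 ± 0.093 (SE), or 1.82-fold and 2.53-fold higher. That of miR-376a*A was 0.12 ± 0.106 (SE) and 0.14 ± 0.093 (SE).

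Between the forms, the FGF5 probe sets 208378_x_at and 210310_s_at stood at -0.74 ± 0.106 (SE) and -1.20 ± 0.093 (SE) for miR-376a*A minus miR-376a*G. Another probe set of FGF5, 210311_at, was near the filter, at 18.2, 15 and 16.1 with miR-376a*A, 17.9, 20.5 and 17.7 with miR-376a*G and 22.8, 12.7 and 9.41 in the control. All 3 groups overlapped there, so it gave no order, and control replicate 1 was its highest array. With an offset of 64 the miR-376a*G differences of 208378_x_at and 210310_s_at against the control were 0.54 and 0.79, and with an offset of 1 they were 1.06 and 1.75.

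**Figure D1:**
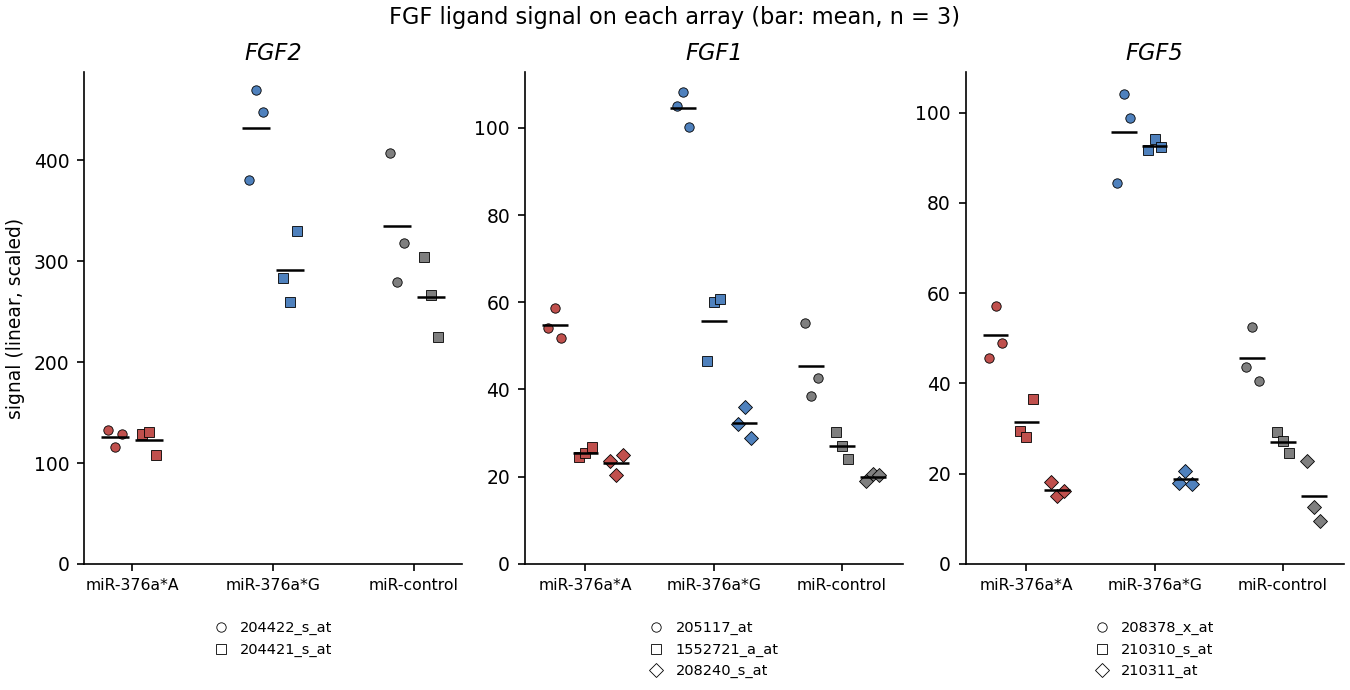
Linear scaled signal (vertical axis, from 0) of the FGF2, FGF1 and FGF5 probe sets on each array of the 3 groups. Points are arrays, symbols are probe sets and bars are means of 3 arrays. Both FGF2 probe sets are lowest with miR-376a*A, with no array above 133, and all FGF1 and 2 of the FGF5 probe sets are highest with miR-376a*G.

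The ligands thus differed in the group that stood apart: miR-376a*A for FGF2, and miR-376a*G for FGF1 and FGF5. The 250 bases before a transcript start of FGF1 (chr5:142644240-142644489, minus strand, GRCh38.p14, RefSeq) are shown, because among 12 such windows of 6 of the genes it alone matched TGANTCA, the letters bound by the ERK-regulated factor AP-1. The 3 other FGF1 windows had no match, and which start is used in U87 cells cannot be read from these arrays. Capitals mark the match.
FGF1 promoter: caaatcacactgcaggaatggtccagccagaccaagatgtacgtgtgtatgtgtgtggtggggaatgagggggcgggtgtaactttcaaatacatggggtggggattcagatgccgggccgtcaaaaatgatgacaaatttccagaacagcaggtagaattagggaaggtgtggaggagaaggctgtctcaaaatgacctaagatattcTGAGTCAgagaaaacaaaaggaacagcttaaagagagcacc
Both strands were searched, and 6.57% of 35116 windows of the same length held the motif. The match is a description of the letters only.

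FGFR1, the receptor kinase gene, had 7 probe sets that did not share a direction. The brightest, 226705_at, gave 319, 325 and 305 with miR-376a*A, 330.1, 319 and 329.7 with miR-376a*G and 374, 405 and 397 in the control. Both forms lay below every control array and overlapped with each other. The log2 difference against the control was -0.30 ± 0.065 (SE) with miR-376a*A and -0.25 ± 0.065 (SE) with miR-376a*G. The next, 211535_s_at, gave 209.5, 220.4 and 189 with miR-376a*A, 226, 203 and 210.0 with miR-376a*G and 379.8, 326 and 314 in the control. It stood at -0.68 ± 0.087 (SE) and -0.63 ± 0.087 (SE) for the 2 forms against the control.

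Probe sets 210973_s_at and 207937_x_at of FGFR1 were also below the control in both forms. The first gave 102, 86.3 and 80.3 with miR-376a*A, 68.4, 79 and 69.5 with miR-376a*G and 122, 131 and 137 in the control, and at -0.47 and -0.73 (log2) it was lowest with miR-376a*G, with no overlap of the forms. The second gave 72.1, 66.5 and 65.3 with miR-376a*A, 81.4, 53.9 and 67.7 with miR-376a*G and 81.7, 93.5 and 88 in the control, and it stood at -0.30 ± 0.111 (SE) with miR-376a*A and -0.32 ± 0.111 (SE) with miR-376a*G. The value for miR-376a*G was -0.20 without miR-376a*G replicate 2, and replicate 1 lay just below the lowest control array.

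Against these 4 probe sets, 215404_x_at of FGFR1 was above the control in both forms. It gave 109, 94.7 and 108 with miR-376a*A, 78.5, 91.2 and 81.5 with miR-376a*G and 74.4, 75.9 and 70.9 in the control, or 0.41 ± 0.085 (SE) and 0.15 ± 0.085 (SE) against the control. Probe set 222164_at was above it with miR-376a*A only, at 144, 132 and 132, with 117, 111 and 108 for miR-376a*G and 85.7, 119 and 112 in the control. Its difference for miR-376a*A was 0.33 ± 0.101 (SE), and 0.21 without control replicate 1. The dimmest, 207822_at, overlapped in all groups, with means of 25.6, 23.2 and 27. FGFR1 therefore had 4 probe sets lower and 2 higher than the control with miR-376a*A, and 4 lower and 1 higher with miR-376a*G. Probe sets whose names end in _x_at can also bind other transcripts, and those ending in _s_at can bind several transcripts of a gene or family.

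**Figure D2:**
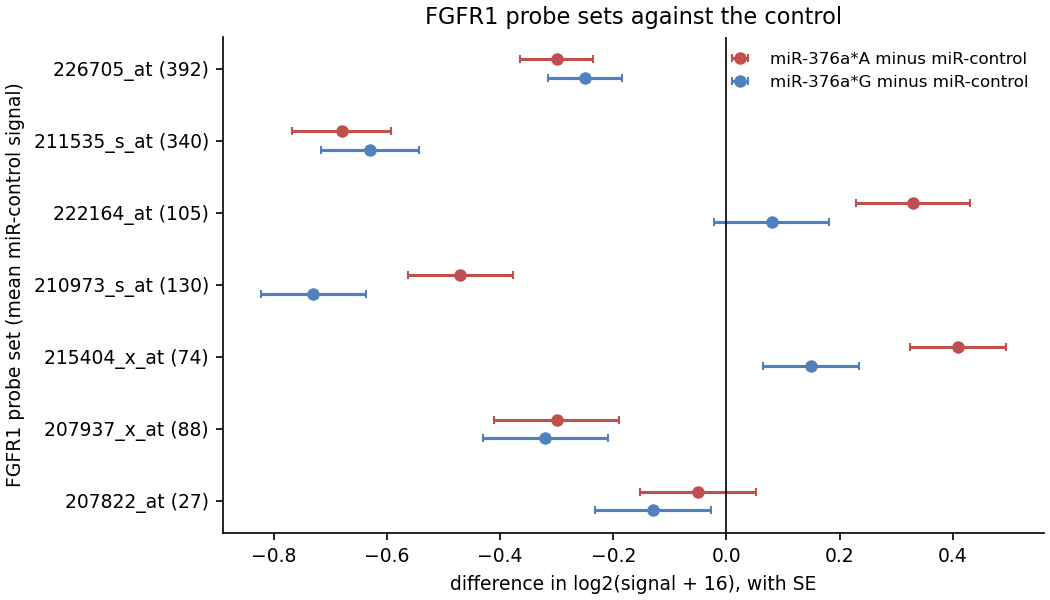
Difference in log2(signal + 16) against the control (horizontal axis, bars are SE from limma) for the 7 FGFR1 probe sets, ordered by mean signal over all arrays, with the mean control signal in brackets. The 2 brightest lie left of 0 for both forms, from -0.68 to -0.25, and 215404_x_at lies right of 0 for both.

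Among the inhibitors, DUSP6 and SPRY2 were higher with both forms, and SPRY4 overlapped between all groups. DUSP6 is a cytoplasmic phosphatase that inactivates ERK. Its brightest probe set, 208892_s_at, gave 694, 659 and 641 with miR-376a*A, 569, 596 and 595 with miR-376a*G and 445, 413 and 437 in the control. The 3 groups did not overlap, in the order miR-376a*A, miR-376a*G, control from high to low. Against the control the log2 difference was 0.60 ± 0.063 (SE) for miR-376a*A (1.52-fold higher) and 0.43 ± 0.063 (SE) for miR-376a*G (1.35-fold higher).

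DUSP6 probe set 208893_s_at had the same order without overlap. It gave 315, 369.8 and 340.2 with miR-376a*A, 301, 280.1 and 289.5 with miR-376a*G and 241, 209.7 and 195 in the control. The third, 208891_at, gave 359, 305 and 324 with miR-376a*A, 262, 266 and 313 with miR-376a*G and 287, 259 and 248 in the control. In it miR-376a*A lay above the control, at 0.30 ± 0.09 (SE), while miR-376a*G overlapped with both other groups, at 0.08 ± 0.09 (SE) against the control.

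SPRY2 encodes a Sprouty protein, which blocks the path between receptor and ERK. Its only probe set, 204011_at, gave 768, 738 and 723 with miR-376a*A, 657, 709 and 717 with miR-376a*G and 556, 514 and 529.9 in the control. Both forms lay above every control array, at 0.47 ± 0.063 (SE) and 0.37 ± 0.063 (SE) (1.38-fold and 1.29-fold higher). Between the forms the difference was 0.10 ± 0.063 (SE), and it was -0.01 after centring arrays on their medians, so the forms had no firm order. The same centring brought the differences of DUSP6 208892_s_at and 208893_s_at between the forms to 0.07 and 0.12, against 0.17 and 0.22 on the deposited scale.

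SPRY4, a second Sprouty gene, was read by probe set 221489_s_at. It gave 309, 327 and 306 with miR-376a*A, 312, 278 and 276 with miR-376a*G and 273, 307 and 256 in the control. No pair of groups lay apart, and the log2 differences against the control were 0.17 ± 0.081 (SE) and 0.05 ± 0.081 (SE). The SPRY4 level thus showed no order between the groups beyond the spread of the arrays.

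**Figure D3:**
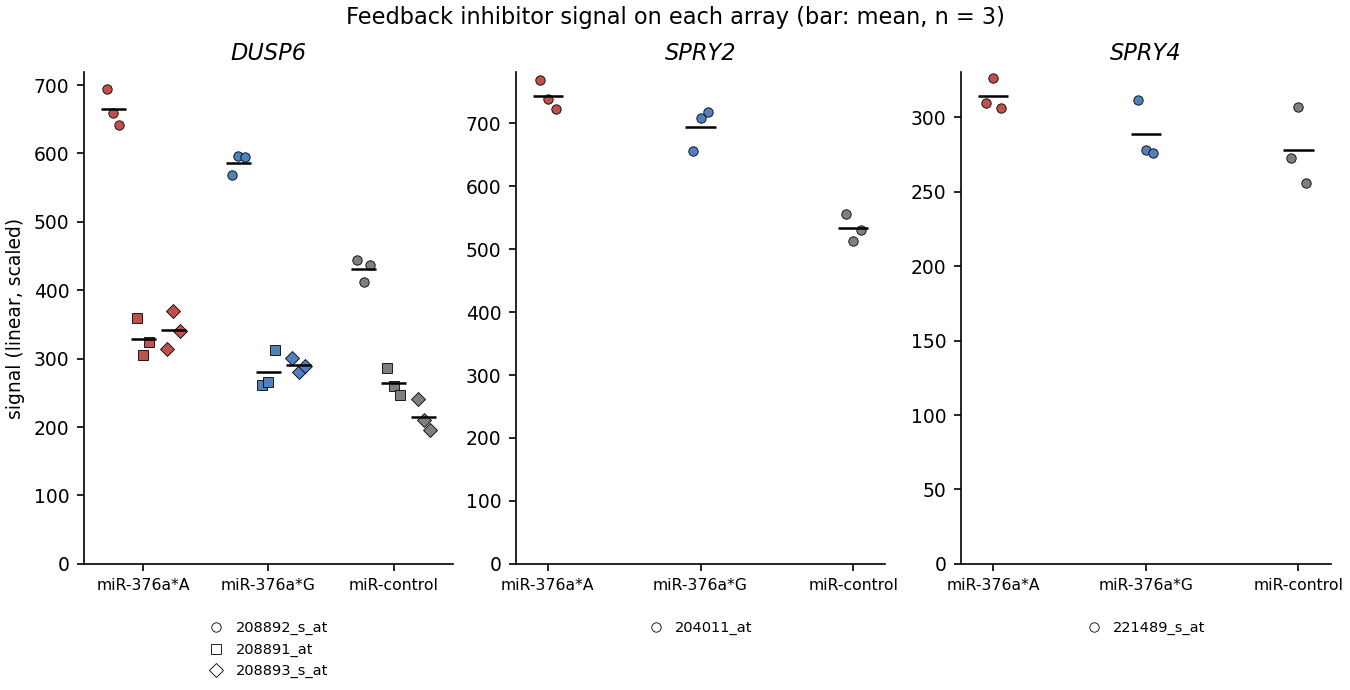
Linear scaled signal (vertical axis, from 0) of the DUSP6, SPRY2 and SPRY4 probe sets on each array of the 3 groups. Points are arrays, symbols are probe sets and bars are means of 3 arrays. DUSP6 208892_s_at is ordered miR-376a*A, miR-376a*G, control from high to low without overlap, SPRY2 is lowest in the control, and the SPRY4 groups overlap.

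As DUSP6 and SPRY2 were both higher with both forms and ETS factors are among those through which ERK acts on its target genes, the 250 bases before 1 start of each are shown (RefSeq, GRCh38.p14, both on the minus strand). The windows are chr12:89352502-89352751 for DUSP6 and chr13:80341127-80341376 for SPRY2, and capitals mark CCGGAA, a longer form of the GGAA core that ETS factors bind, searched on both strands.
DUSP6 promoter: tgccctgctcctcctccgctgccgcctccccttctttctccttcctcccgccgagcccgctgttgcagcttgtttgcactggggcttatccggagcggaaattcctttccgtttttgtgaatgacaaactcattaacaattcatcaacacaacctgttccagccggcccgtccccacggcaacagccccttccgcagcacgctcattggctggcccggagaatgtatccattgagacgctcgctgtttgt
SPRY2 promoter: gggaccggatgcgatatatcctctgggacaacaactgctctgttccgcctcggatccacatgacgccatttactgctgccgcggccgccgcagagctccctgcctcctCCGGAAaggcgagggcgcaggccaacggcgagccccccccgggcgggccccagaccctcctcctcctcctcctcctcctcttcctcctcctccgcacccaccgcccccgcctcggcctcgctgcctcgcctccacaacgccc
The SPRY2 window held 1 match, which begins 142 bases before the start, and the 2 other SPRY2 windows held none. The DUSP6 window did not hold this longer form, and of all 35116 windows 14.5% did. The 4-letter core GGAA, not capitalised on its own, had 6 matches in the DUSP6 window and 3 in the SPRY2 window, of which 1 lies inside the longer match. At least 1 such match was held by 92.7% of all windows. That share is no baseline for the number of matches in a window, which was not compared.

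Other genes of the pathway were taken from a textbook list of 143 genes that leaves out the 7 described above. The list was chosen with earlier results of these data known, so its shares beside those of all genes are a description. Of the listed genes, 132 were on the array and 101 passed the filter, each read by its brightest probe set. A gene passed the test at a limma Benjamini-Hochberg adjusted p under 0.05 over all 32768 probe sets. With miR-376a*A against the control 14 rose, 14 fell and 73 did not pass (27.7% passed, against 22.6% of all 13697 genes, 10.5% up and 12.0% down), with a median log2 difference of -0.01 against 0.02 for all genes. With miR-376a*G 16 rose, 20 fell and 65 did not pass (35.6%, against 28.6% of all genes, 13.3% up and 15.3% down), with medians of -0.06 and -0.01. Between the forms 18 were higher with miR-376a*A and 13 lower (30.7%, against 20.5% of all genes, 10.8% and 9.68%), with medians of 0.04 and 0.02. Over all probe sets miR-376a*A gave 6988 that passed (21.3%), miR-376a*G 8454 (25.8%) and the forms against each other 5942 (18.1%, and 3827 probe sets without miR-376a*G replicate 2). Centring each array on its median turned the split of the list to 11 higher and 20 lower for miR-376a*A and to 12 higher and 15 lower between the forms, so small differences have no firm direction. An offset of 64 shrank the differences of dim genes by over 1.5 times, to 0.30 and 0.21 for FGF18 with miR-376a*A and miR-376a*G, -0.23 and -0.26 for FGFR2, 0.17 for GPC2 with miR-376a*G, and 0.16 and 0.18 for FGF11 and FGFRL1 between the forms. It did the same for FGF14, GLCE, EXTL3, HPSE, GAB2 and PIK3R1, which kept their direction.

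**Figure D4:**
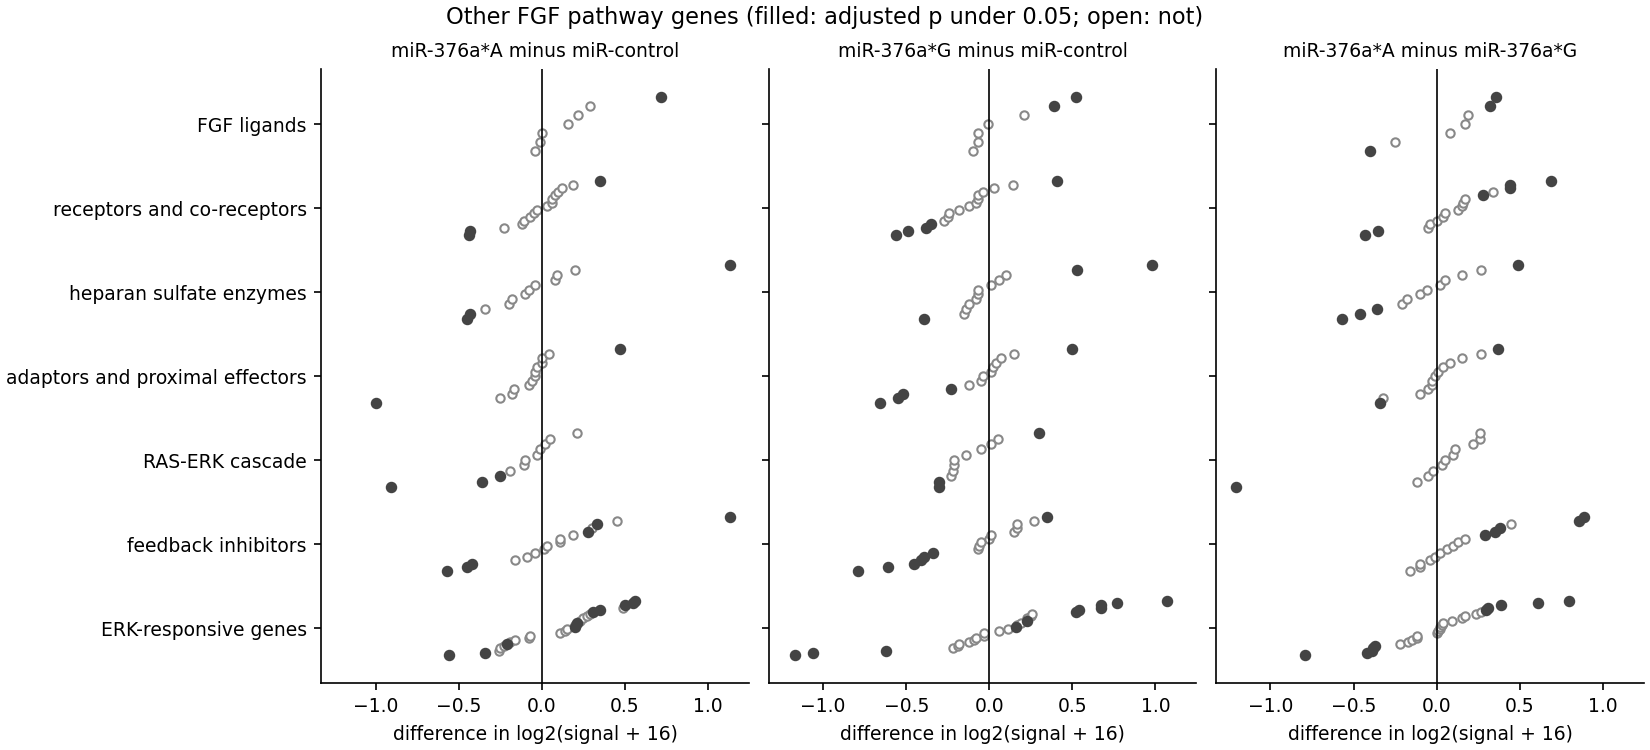
Difference in log2(signal + 16) (horizontal axes) of the 101 tested pathway genes other than the 7, by role (rows), for the 3 comparisons. Each point is a gene, and filled points passed at an adjusted p under 0.05. Between -0.5 and 0.5 lie most points, and filled points occur on both sides of 0 in each comparison.

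Among 7 tested genes for other FGF ligands, 1 passed with miR-376a*A, 2 with miR-376a*G and 3 between the forms. FGF18, which signals in bone and lung development, rose with both forms. Its signals were 28.8, 29.5 and 27.6 with miR-376a*A, 23.5, 22.6 and 23 with miR-376a*G and 8.77, 16.5 and 8.78 in the control, so 2 of 3 control arrays were below the filter level of 11.3. The log2 differences against the control were 0.72 ± 0.114 (SE) and 0.52 ± 0.114 (SE), with limma adjusted p of 0.000714 and 0.0046. A second FGF18 probe set gave 0.03 and 0.00 and did not pass. The remaining FGF18 probe sets were below the filter and untested, with means highest with miR-376a*A and lowest in the control. FGF14, which belongs to a subfamily that stays in the cell and binds sodium channels, rose with miR-376a*G (0.39, adjusted p = 0.00921), and the call ended without miR-376a*G replicate 3 (adjusted p = 0.0502). Its 3 other probe sets, from -0.16 to 0.27, did not pass. FGF14 was lower with miR-376a*A than with miR-376a*G (-0.40, adjusted p = 0.0116), a call that ended without replicate 3 of either form (0.0576 and 0.0642). FGF11 and FGF13, of the same subfamily, were higher with miR-376a*A than with miR-376a*G by 0.36 and 0.32 (adjusted p = 0.0487 and 0.0244). The FGF11 call ended without any of 6 single arrays (adjusted p up to 0.167 without miR-376a*G replicate 2), and that of FGF13 when replicate 1 of either form or replicate 2 of miR-376a*G was dropped (0.0674 to 0.114).

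Of 16 tested receptor and co-receptor genes, 1 rose and 2 fell with miR-376a*A, and 1 rose and 4 fell with miR-376a*G. Between the forms 4 were higher with miR-376a*A and 2 lower. FGFR2 was lower with both forms in the only probe set of this gene that passed the filter. Its signals were 33.5, 28.6 and 31.3 with miR-376a*A, 28.9, 25.7 and 33.9 with miR-376a*G and 47.9, 49.9 and 45.8 in the control. Its log2 differences were -0.44 ± 0.095 (SE) and -0.49 ± 0.095 (SE) (adjusted p = 0.00554 and 0.00213). All other FGFR2 probe sets were below the filter and untested, with group means of at most 11.3, so the call rests on a single probe set. The syndecan gene SDC1, which encodes a heparan sulfate carrying co-receptor, moved in opposite directions. It gave 594, 601 and 564 with miR-376a*A, 348, 343 and 378 with miR-376a*G and 460.2, 472 and 439.8 in the control, and no groups overlapped. SDC1 rose with miR-376a*A (0.35, adjusted p = 0.0025), fell with miR-376a*G (-0.35, adjusted p = 0.002), and differed between the forms by 0.69 ± 0.066 (SE) (adjusted p = 1.05e-05). A second SDC1 probe set gave the same calls, at 0.23, -0.43 and 0.66.

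SDC4, another syndecan gene, fell with miR-376a*A (-0.43 ± 0.06 (SE), adjusted p = 0.000254) and stood at -0.08 with miR-376a*G. Between the forms SDC4 was lower with miR-376a*A (-0.35, adjusted p = 0.00132), as was GPC2 (-0.43, adjusted p = 0.00746). Of the glypican genes, which encode membrane-anchored heparan sulfate proteoglycans, GPC6 fell with miR-376a*G (-0.56 ± 0.08 (SE), adjusted p = 0.000245) and GPC2 rose (0.41 ± 0.097 (SE), adjusted p = 0.00824). GPC6 was higher with miR-376a*A than with miR-376a*G (0.44, adjusted p = 0.0018). FGFRL1, a receptor-like gene without a kinase, was also higher with miR-376a*A than with miR-376a*G (0.44, adjusted p = 0.0304). A second FGFRL1 probe set gave 0.09 and did not pass. The first call ended when any 1 of the miR-376a*A arrays or replicate 1 of miR-376a*G was dropped (adjusted p of 0.0618 to 0.106). FGFRL1 passed as lower with miR-376a*G against the control (-0.38, adjusted p = 0.0456), a call that ended when any of 7 single arrays was dropped, with -0.23 (adjusted p = 0.175) without miR-376a*G replicate 1. The second FGFRL1 probe set also passed as lower there (-0.39, adjusted p = 0.0229), at dim mean signals of 8.84 with miR-376a*G and 16.6 in the control.

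Among 12 tested genes for heparan sulfate enzymes, 1 rose and 2 fell with miR-376a*A, and 2 rose and 1 fell with miR-376a*G. Between the forms 1 was higher with miR-376a*A and 3 were lower. NDST1, which starts the sulfation of the chains, gave 184, 205 and 219 with miR-376a*A, 175, 171 and 195 with miR-376a*G and 103, 81.6 and 69.4 in the control. This brightest probe set rose with both forms (1.13 ± 0.113 (SE) and 0.98 ± 0.113 (SE), adjusted p = 1.75e-05 and 4.78e-05). The 2 others of NDST1 gave -0.01 and -0.14 with miR-376a*A, which did not pass, and fell with miR-376a*G (-0.49 and -0.51), so the gene has no single direction. EXT1, a subunit of the chain polymerase, fell with miR-376a*G in all 3 of its probe sets (-0.39, -0.54 and -0.56) and passed in none with miR-376a*A. Its brightest probe set was higher with miR-376a*A than with miR-376a*G by 0.49 (adjusted p = 0.00112).

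The epimerase gene GLCE and the chain initiation gene EXTL3 fell with miR-376a*A by 0.45 and 0.43 on the log2 scale (adjusted p = 0.00808 and 0.00416). GLCE was also lower with miR-376a*A than with miR-376a*G (-0.46, adjusted p = 0.00791). So was EXTL3 (-0.36, adjusted p = 0.0122), except without replicate 1 of miR-376a*A or replicate 2 of miR-376a*G (0.0546 and 0.0676). HPSE, the gene of the enzyme that cuts heparan sulfate, rose with miR-376a*G (0.53, adjusted p = 0.00501) and was lower with miR-376a*A than with miR-376a*G (-0.57, adjusted p = 0.00414). A second HPSE probe set gave 0.01 and -0.17 in these comparisons and did not pass.

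Of 13 tested genes for adaptors and proximal effectors, 1 rose and 1 fell with miR-376a*A, and 1 rose and 4 fell with miR-376a*G. STAT3, a transcription factor that receptor kinases can activate, gave 214, 193 and 190.4 with miR-376a*A, 244, 252 and 274 with miR-376a*G and 472, 403 and 370.0 in the control. The groups did not overlap, and STAT3 fell with both forms (-1.0 ± 0.091 (SE) and -0.66 ± 0.091 (SE), adjusted p = 8.59e-06 and 0.000213). Of its 3 other probe sets, 2 also fell with both forms. It was lower with miR-376a*A than with miR-376a*G (-0.34, adjusted p = 0.0209), a call that ended when replicate 2 or 3 of either form was dropped (adjusted p of 0.0579 to 0.0968). PIK3R1, a regulatory subunit of phosphoinositide 3-kinase, rose with both forms in its brightest probe set (0.47 and 0.50, adjusted p = 0.00385 and 0.00189). Its 2 other probe sets gave 0.30 and 0.41 with miR-376a*A, of which only the last passed. With miR-376a*G they gave 0.26 and 0.22 and did not pass. The adaptor genes CRKL and GAB2 fell with miR-376a*G by 0.55 and 0.52 on the log2 scale (adjusted p = 0.000187 and 0.00281). CRKL was higher with miR-376a*A than with miR-376a*G (0.37, adjusted p = 0.00411), while a second CRKL probe set gave 0.17 there and did not pass.

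In the RAS-ERK cascade 3 of 11 tested genes fell and 0 rose with miR-376a*A, and 1 rose and 2 fell with miR-376a*G. At an unadjusted p under 0.05 in limma, 1 gene (RPS6KA2, named after its value was seen) was higher and 4 were lower with miR-376a*A. With miR-376a*G 1 was higher and 5 were lower at that threshold, for which the share of all genes was not counted. RPS6KA3, the gene of an ERK-activated kinase, gave 154, 148 and 164 with miR-376a*A, 358, 416 and 363 with miR-376a*G and 298, 306 and 311 in the control. It fell with miR-376a*A (-0.91 ± 0.076 (SE), 1.88-fold lower, adjusted p = 3.72e-06), and was 2.31-fold lower with miR-376a*A than with miR-376a*G (adjusted p = 3.12e-07). Its rise with miR-376a*G (0.30, adjusted p = 0.0123) ended as a call without miR-376a*G replicate 2 (0.23, adjusted p = 0.0766). A second RPS6KA3 probe set gave -0.36, 0.05 and -0.41 in the 3 comparisons and did not pass. MAP2K1 and MAP2K2, the kinases directly above ERK, fell with both forms. MAP2K2 stood at -0.36 and -0.30 (adjusted p = 0.00309 and 0.00649), and MAP2K1 at -0.25 and -0.30 (adjusted p = 0.0206 and 0.0057). The first MAP2K1 call was lost when replicate 1 or 3 of miR-376a*A was dropped (0.0739 and 0.0864).

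Of 16 tested genes for other feedback inhibitors, 3 rose and 3 fell with miR-376a*A, and 1 rose and 6 fell with miR-376a*G. Between the forms 5 were higher with miR-376a*A and 0 lower by adjusted p in limma, beside 10.8% and 9.68% of all genes. At an unadjusted p under 0.05, 6 were higher and 0 lower, a threshold at which the share of all genes was not counted. Centring arrays on their medians turned the whole pathway list from 18 higher and 13 lower to 12 and 15. DUSP10 then did not pass (0.20, adjusted p = 0.168), so the split depends in part on scaling. DUSP4, a nuclear phosphatase of ERK and related kinases, gave 704, 641 and 682 with miR-376a*A, 371, 368 and 357 with miR-376a*G and 253, 345 and 312 in the control. It rose with miR-376a*A (1.13 ± 0.094 (SE), 2.18-fold higher, adjusted p = 3.65e-06) and stood at 0.27 ± 0.094 (SE) with miR-376a*G (adjusted p = 0.0522). Its 2 other probe sets also rose with miR-376a*A (0.85 and 0.72), while with miR-376a*G they gave 0.15 and -0.23, of which the last passed as lower. All 3 were higher with miR-376a*A than with miR-376a*G, by 0.70 to 0.95.

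DUSP7, a cytoplasmic ERK phosphatase gene, gave 275, 275 and 279 with miR-376a*A, 146, 151 and 129 with miR-376a*G and 254, 217 and 204 in the control. It fell with miR-376a*G (-0.61 ± 0.088 (SE), adjusted p = 0.000286) and was 1.86-fold higher with miR-376a*A than with miR-376a*G (adjusted p = 1.48e-05). DUSP7 rose with miR-376a*A against the control (0.28, adjusted p = 0.0364). That call ended without any single miR-376a*A array, without replicate 1 of miR-376a*G or without control replicate 2 or 3 (adjusted p of 0.0502 to 0.128). A dim second DUSP7 probe set did not pass in any comparison. DUSP5, a nuclear ERK phosphatase gene, fell with both forms (-0.45 and -0.34, adjusted p = 0.000756 and 0.00358), whereas DUSP6 was higher with both. DUSP10, which acts mainly on stress kinases, fell with miR-376a*G (-0.45, adjusted p = 0.00321). It was higher with miR-376a*A than with miR-376a*G by 0.29 (adjusted p = 0.0447), a call that ended without any single array of either form (0.0565 to 0.169). The ubiquitin ligase genes CBL and CBLB, whose products remove activated receptors, fell with both forms. None of the 3 other probe sets of CBL passed in either comparison. CBL stood at -0.57 with miR-376a*A (adjusted p = 0.000526) and CBLB at -0.79 with miR-376a*G (adjusted p = 2.02e-05). CBLB was higher with miR-376a*A than with miR-376a*G by 0.38 (adjusted p = 0.00705), while a second CBLB probe set gave 0.18 there and did not pass.

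Of 26 tested genes listed as ERK-responsive, 7 rose and 3 fell with miR-376a*A, and 8 rose and 3 fell with miR-376a*G. Between the forms 5 were higher with miR-376a*A and 5 lower. EGR1, an immediate early transcription factor gene, gave 150.4, 134 and 146 with miR-376a*A, 259, 258 and 263 with miR-376a*G and 108, 103 and 138 in the control. It rose with miR-376a*G (1.07 ± 0.096 (SE), 2.1-fold higher, adjusted p = 6.06e-06), stood at 0.27 with miR-376a*A (adjusted p = 0.0611), and was lower with miR-376a*A than with miR-376a*G (-0.79, adjusted p = 8.59e-05). The 2 other probe sets of EGR1 passed in the same direction with miR-376a*G and between the forms.

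FOSL1, the gene of an AP-1 subunit, gave 375, 372 and 390.1 with miR-376a*A, 266, 231 and 231 with miR-376a*G and 490.3, 635 and 583 in the control. It fell with both forms (-0.56 ± 0.092 (SE) and -1.17 ± 0.092 (SE), adjusted p = 0.000933 and 1.81e-06), and was higher with miR-376a*A than with miR-376a*G (0.61, adjusted p = 0.000486). ELK4, an ETS factor gene, fell with miR-376a*G (-1.06 ± 0.088 (SE), adjusted p = 3.02e-06) and was higher with miR-376a*A than with miR-376a*G (0.80, adjusted p = 3.95e-05). SRF, the serum response factor gene, and HMGA2, a chromatin protein gene, rose with both forms. SRF stood at 0.56 with miR-376a*A and 0.67 with miR-376a*G (adjusted p = 0.00716 and 0.00174), and HMGA2 at 0.55 and 0.54 (adjusted p = 4.03e-05 and 3.46e-05). The genes listed as ERK-responsive therefore did not move in one direction with either form. The list also holds genes of transcription factors through which ERK acts, such as ELK1, ELK4 and SRF. ERK activity itself was not tested.

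The genes nearest to FGF2 in pattern were sought among 13696 other genes by the root mean square difference of log2(signal + 16), with each gene centred on its mean over the 9 arrays. By this measure a flat profile was 0.725 from FGF2 204422_s_at, and the second FGF2 probe set 0.27. The 5 nearest genes were SLC39A10 (0.164), which encodes a zinc importer, the RAB GTPase gene RAB8B (0.164), ISOC1 (0.17), SLC25A43 (0.17), a mitochondrial carrier gene, and G3BP2 (0.174), the gene of a stress granule protein. Mean signals of SLC39A10 were 44.4 with miR-376a*A, 203 with miR-376a*G and 173 in the control, and those of G3BP2 were 298, 978 and 933. Each of the 5 was low on the miR-376a*A arrays, with log2 differences from the control of -1.64 to -1.28, while the miR-376a*G arrays stood 0.02 to 0.22 above it. The 2 other probe sets of RAB8B gave -1.28 and 0.01 for miR-376a*A, and the 2 others of G3BP2 gave -0.74 and -0.57. The 5 genes were picked for this likeness, which rests on 9 arrays in 3 groups.

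**Figure D5:**
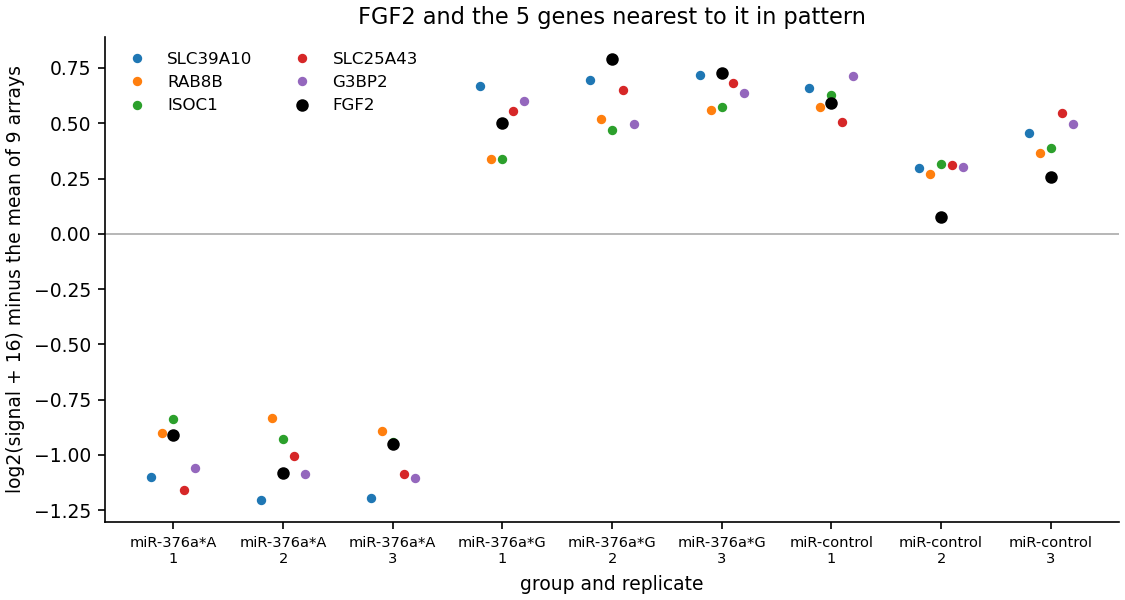
Value of log2(signal + 16) minus the mean of all 9 arrays (vertical axis) for FGF2 204422_s_at (black) and the 5 genes nearest to it, on each array (horizontal axis, group and replicate). All 6 genes lie below 0 on the miR-376a*A arrays and above 0 on the others.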

How the data were processed

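Linear signal intensities per probe set were deposited for 9 Affymetrix arrays, scaled by the authors to a common trimmed mean (2% trim, found from the values). The software was GCOS 1.4.0.036, per the submitters' processing notes, and the signal algorithm is not given in the sources used here. The 7 genes and the gene lists were chosen with earlier results of these data known.

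The 62 array controls among 54675 probe sets were dropped. Values were analysed as log2(signal + 16), and a filter on the mean at its 40th percentile (4.771, or 11.3 as signal) kept 32768 probe sets. limma 3.58.1 in R 4.3.3 (lmFit, contrasts, eBayes with trend) was run on all 9 arrays, two-sided, with Benjamini-Hochberg adjustment over all kept probe sets. It had 6 residual and 6.72 prior degrees of freedom, and the median SE of a log2 difference was 0.102. The fit was tested on simulated data. All kept probe sets were fitted, since the genes were taken as all their probe sets, and other pathway genes were called by their brightest. All 7 symbols matched RefSeq by Entrez identifier. Named besides the 7 genes were, per role and comparison, up to 3 pathway genes with the largest differences among those that passed without overlap, and the 5 genes most like FGF2. RPS6KA2 is named outside this rule, beside a count of 1. The number of arrays limits the precision. Alternatives covered scaling, offset, filter, variance model, probe set rule, arrays in the fit, the replicate number and leaving out each array. Figures were made with Python 3.11.15 and matplotlib 3.10.9.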

Additional observations from a re-analysis of the deposited data

How the results depend on the processing

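A difference of the 7 genes was called moved when it shifted by more than the pooled replicate SD of its probe set. None did when any single array was left out. Leaving out 1 array of 3 cannot shift a difference that far, so this count was fixed in advance and says nothing about stability. Without single arrays, FGF2 204422_s_at ran from -1.4 to -1.15 for miR-376a*A against the control. Of 552 differences of the 7 genes under other alternatives, 515 stayed within the SD, 36 moved beyond it and 1 reversed. The reversal was that of SPRY2 between the forms, at -0.01 with each array centred on its median. In this balanced design only scaling and offset can change these differences, so many of the 515 were fixed in advance. With an offset of 64, FGF2 gave -1.06 and -1.38 in 204422_s_at and -0.81 and -0.93 in 204421_s_at, for miR-376a*A against the control and then against miR-376a*G, since a larger offset shrinks log2 differences. With 1 probe set per gene, 4177, 4993 and 3671 features passed for miR-376a*A, for miR-376a*G and between the forms, because 20068 were tested in place of 32768. Without single arrays the count between the forms ran from 3827 (without miR-376a*G replicate 2) to 8421 (without control replicate 1). With each array centred on its median, 2285 probe sets were higher and 4718 lower for miR-376a*A, against 3360 and 3628, and 2105 and 4463 between the forms, against 3338 and 2604. The pathway list kept its counts within 1.5 times, at 24 to 32, 32 to 40 and 22 to 40 genes in these 3 comparisons. Of the named pathway genes, 44 of 621 calls were lost with an array left out and 24 of 683 under other alternatives. These 24 were FGF11, FGF13, FGFRL1 and DUSP10 between the forms, DUSP7 with miR-376a*A and FGFRL1 with miR-376a*G. Same-numbered arrays did not deviate together (r of -0.103 to 0.063), so no large shared effect of the replicate number was seen. The labels do not say whether equal numbers share a culture or day, and these values cannot decide it. With the replicate number as a block 6430, 7952 and 5397 probe sets and 26, 35 and 28 pathway genes passed, while FGF11 and DUSP10 between the forms and FGFRL1 with miR-376a*G did not (adjusted p = 0.0765, 0.0521 and 0.0639). Dim probe sets, such as FGF5 210311_at and FGF18, are limited by their signal over background.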
